A study of Mus musculus with 8 samples.

Results

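The genes described here are 39 genes of DNA replication and nucleotide supply, chosen by symbol: the factors that license replication origins, the replicative helicase, the DNA polymerases and primase, the sliding clamp and its loader, the proteins that finish the lagging strand, the enzymes that supply deoxynucleotides, and 4 proteins that rebuild chromatin and its methylation behind the fork. All 39 had a probe set with a single gene symbol on the array, among 19938 genes named that way, and 37 of the 39 were bright enough to be tested. Expression was measured in whole uterus of young C57BL/6 mice, virgin before the mating, on day 3 at 22 h, close to the time when embryos attach, with the mating night counted as day 0. Stud males had sired the pregnancies, and a uterus entered the pregnant group (4 samples) where no blue dye reaction showed an attached embryo and where healthy blastocysts could be flushed out. Matings with vasectomized males gave the pseudopregnant uteri (4 samples), which carried no embryos. The samples were chosen for RNA quality, with integrity numbers between 6.9 and 8.7 over both groups.

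Before a cell divides, the origin recognition complex, CDC6 and CDT1 load the MCM helicase onto DNA, and CDC45 and the GINS complex turn it into a working helicase at the start of S phase. Polymerase alpha with its primase begins each strand, the clamp loader places PCNA on the primed DNA, and polymerases delta and epsilon then copy it. Many of these genes are transcribed around the entry into S phase under E2F transcription factors, and in the uterus of early pregnancy estrogen and progesterone decide which cell layers, epithelium or stroma, divide.

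The array values were log2 intensities, and a difference is given as pregnant minus pseudopregnant. All 37 tested genes had a difference above 0, where 50.6% of all 17491 tested probe sets did. The differences ran between 0.08 for Rfc2 and 0.93 for Rrm2, with a median of 0.33, against a median of 0.0019 over all tested probe sets. Of the 37 genes, 6 rose, which is 16.2% of them, at a limma adjusted p under 0.05 over all tested probe sets, and none fell. That threshold was passed upward by 1.41% and downward by 0.412% of all tested probe sets. The 6 genes were Mcm10, Pcna, Pole2, Chaf1b, Pola1 and Rfc3, and their folds lay between 1.32 and 1.53. At an unadjusted p under 0.05, limma placed 32 of the 37 higher (86.5%), against 14.3% of all tested probe sets. The groups did not overlap in 17 of the 37 genes (45.9%), each with every pregnant array above every pseudopregnant array, as was the case for 9.23% of all tested probe sets.

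The shifts were small, and the number of genes past the threshold depended on single arrays and on which probe sets were tested together. It was 0 without the filter on dim probe sets and 0 with the block of likely array controls kept in, while limma had 33 of 39 and 30 of 37 genes at an unadjusted p under 0.05. It was also 0 without pregnant replicate 1 or 4 and without pseudopregnant replicate 1, 2 or 3, while limma had 26 to 31 genes at an unadjusted p under 0.05 in those fits. The count was 1 without pregnant replicate 2, 2 without pseudopregnant replicate 4 and 11 without pregnant replicate 3. The gene past it without pregnant replicate 2 was Rrm2, which is not among the 6. With 1 array left out, Mcm10 and Pcna passed in 2 of the fits, Pole2, Chaf1b and Pola1 in 1 each and Rfc3 in none. Over all tested probe sets, the share called higher was 0.154% to 0.972% with 1 array left out. The median difference moved far less, between 0.28 and 0.43 with 1 array left out. In whole tissue, a change in the number of cells that express a gene and a change in the RNA per cell cannot be told apart, and the males differed between the groups together with the presence of embryos.

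**Figure D1:**
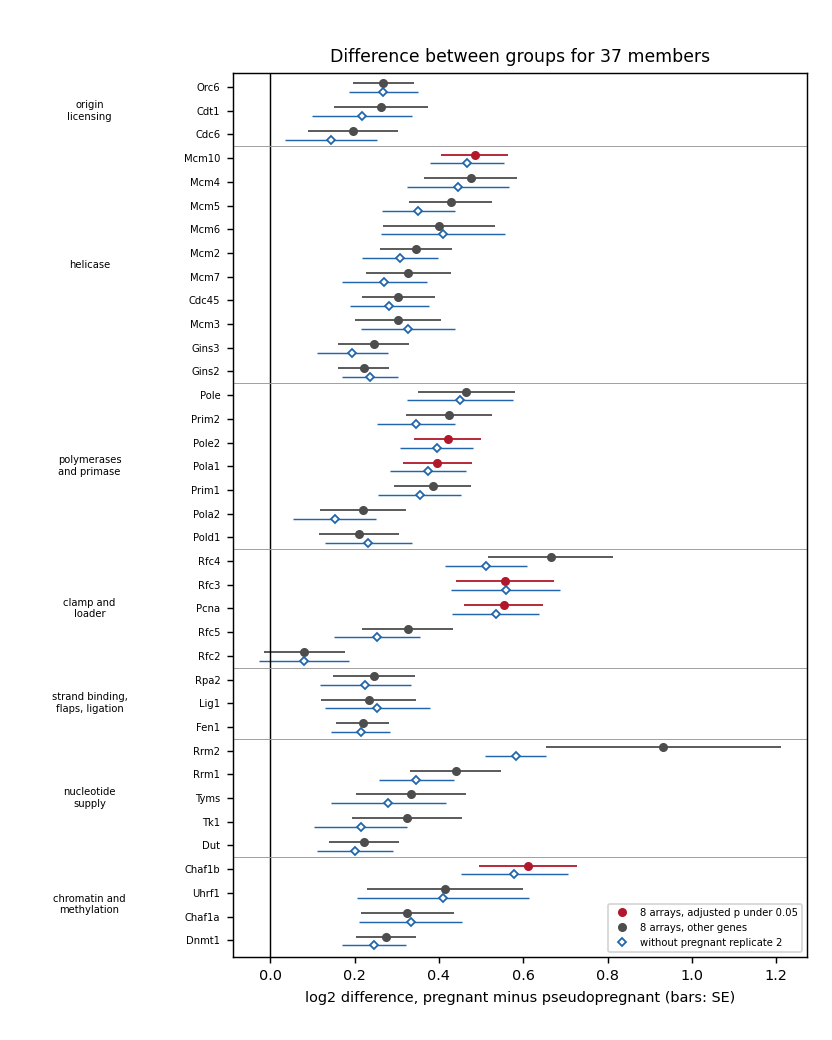
Log2 difference, pregnant minus pseudopregnant, of the 37 tested genes by role (x axis, horizontal bars: SE). Filled circles are the fit on 8 arrays, red where the limma adjusted p was under 0.05, and open diamonds the fit without pregnant replicate 2. All circles lie right of 0, and the diamond of Rrm2 lies at 0.58 where its circle lies at 0.93.

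In the order of the replication process, origin licensing came first, with 3 tested genes: Orc6, a subunit of the origin recognition complex, Cdt1, which brings the MCM complex to origins, and Cdc6, the ATPase that loads it. None of the 3 passed the threshold in limma, 2 had an unadjusted p under 0.05, and their differences were 0.20 to 0.27. Beside the counts of this and the later roles, 1.41% of all tested probe sets rose and 14.3% were higher at that unadjusted p. In 9.23% of all tested probe sets every pregnant array was above every pseudopregnant array. Cdc6 had log2 intensities of 6.01, 6.14, 5.67 and 6.09 on the pregnant arrays, against 5.89, 5.90, 5.73 and 5.62 on the pseudopregnant arrays. The groups overlapped, with pregnant replicate 3 below 3 of the 4 pseudopregnant arrays, and the difference of 0.20 ± 0.11 (SE) had a limma adjusted p of 0.289. Orc1, the ATPase subunit of the origin complex, lay below the 40th percentile of its array on all 8 arrays and was not tested. It ran between 4.89 and 4.95 in the pregnant group and between 4.60 and 4.97 in the pseudopregnant group.

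Of the helicase genes, 10 were tested, 1 rose, all 10 had an unadjusted p under 0.05, and the groups did not overlap in 5. Mcm10, whose protein helps to start the assembled helicase and to bring in polymerase alpha, had the smallest p of all 37 genes. Its log2 intensities were 6.45, 6.42, 6.15 and 6.46 on the pregnant arrays, against 5.97, 5.79, 5.96 and 5.83 on the pseudopregnant arrays. Every pregnant array was above every pseudopregnant array, and pregnant replicate 3 was the lowest of its group. The means were 6.37 ± 0.15 in the pregnant and 5.89 ± 0.091 in the pseudopregnant group (SD, n = 4 each), a rise of 0.48 ± 0.079 (SE) or 1.40-fold with a limma adjusted p of 0.0255. Without pregnant replicate 2 the difference was 0.47 and its limma adjusted p 0.050.

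The MCM2 to MCM7 proteins form the ring that unwinds DNA, and their 6 genes had differences between 0.30 and 0.47 with adjusted p-values of 0.0554 to 0.121, so none of them passed. Mcm5 was at 8.01, 8.19, 7.72 and 7.93 in the pregnant group, against 7.61, 7.56, 7.59 and 7.37 in the pseudopregnant group. Mcm4 was at 7.74, 7.67, 7.29 and 7.62 in the pregnant group, against 7.22, 7.26, 7.05 and 6.89 in the pseudopregnant group. For both genes the groups stood apart, by a narrow margin in Mcm4 between pregnant replicate 3 and pseudopregnant replicate 2. The differences were 0.43 for Mcm5 (limma adjusted p = 0.0554) and 0.47 for Mcm4 (limma adjusted p = 0.0572). The helicase activators Cdc45, Gins2 and Gins3 had differences of 0.30, 0.22 and 0.24 with limma adjusted p-values between 0.0758 and 0.128. A further GINS gene, Gins1, was too dim on 1 pregnant and all 4 pseudopregnant arrays to be tested. It was at 5.46, 5.70, 5.09 and 5.49 in the pregnant group, against 4.91, 4.78, 4.72 and 4.55 in the pseudopregnant group, and the groups did not overlap.

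Among the 7 polymerase and primase genes, 2 rose and 5 had an unadjusted p under 0.05, with a median difference of 0.40. Pole2, the second subunit of the leading strand polymerase epsilon, was at 6.48, 6.58, 6.34 and 6.62 in the pregnant group, against 6.06, 6.23, 6.10 and 5.94 in the pseudopregnant group. Pola1, the catalytic subunit of polymerase alpha, was at 7.40, 7.35, 7.09 and 7.31 in the pregnant group, against 6.73, 6.92, 6.99 and 6.92 in the pseudopregnant group. In both genes all pregnant arrays were higher than all pseudopregnant arrays, and pregnant replicate 3 was the nearest to them. Pole2 rose by 0.42 ± 0.080 (SE, limma adjusted p = 0.0371) and Pola1 by 0.40 ± 0.082 (SE, limma adjusted p = 0.0451).

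The primase subunits and the polymerase epsilon catalytic subunit came close to the threshold without passing it. The small primase subunit gene Prim1 was at 6.85, 6.86, 6.60 and 6.78 in the pregnant group, against 6.24, 6.44, 6.60 and 6.27 in the pseudopregnant group. The large primase subunit gene Prim2 was at 7.36, 7.62, 7.17 and 7.38 in the pregnant group, against 6.80, 7.14, 7.04 and 6.87 in the pseudopregnant group. Pole was at 7.40, 7.25, 6.84 and 7.32 in the pregnant group, against 6.69, 6.88, 6.78 and 6.61 in the pseudopregnant group. The groups stood apart in Prim2 but overlapped in Prim1 and Pole, where pregnant replicate 3 reached the level of a pseudopregnant array. The differences were 0.39 for Prim1, 0.42 for Prim2 and 0.47 for Pole, with limma adjusted p-values between 0.0580 and 0.0614. The other members of this role, Pola2 of polymerase alpha and Pold1, the catalytic subunit of polymerase delta, had differences of 0.22 and 0.21 and limma adjusted p-values of 0.227 and 0.211.

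The sliding clamp and clamp loader had the highest median of the 7 roles, 0.55 over 5 genes, of which 2 rose. Pcna, the clamp that holds the polymerases on DNA, was at 9.78, 9.73, 9.40 and 9.78 in the pregnant group, against 9.10, 9.21, 9.19 and 8.98 in the pseudopregnant group. The groups did not overlap, although pregnant replicate 3 lay nearer to the highest pseudopregnant array than to the next pregnant one. The group means were 9.67 ± 0.19 and 9.12 ± 0.11 (SD, n = 4 each) for pregnant and pseudopregnant uteri, a rise of 0.55 ± 0.094 (SE) or 1.47-fold (limma adjusted p = 0.0282). A second probe set of the same symbol differed by 0.55 as well (limma adjusted p = 0.0295). Whether its probes read Pcna alone or also a near copy cannot be told from the deposited values.

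The loader subunits were less uniform. Rfc3 was at 6.83, 6.71, 6.62 and 6.71 in the pregnant group, against 5.86, 6.36, 6.41 and 6.01 in the pseudopregnant group. Rfc4 was at 8.03, 8.53, 7.89 and 7.81 in the pregnant group, against 7.18, 7.51, 7.57 and 7.35 in the pseudopregnant group. In both the groups stood apart, and pseudopregnant replicate 1 was the lowest array. Rfc3 rose by 0.56 ± 0.12 (SE, limma adjusted p = 0.0471), while Rfc4, with a larger difference of 0.67 ± 0.15, had an adjusted p of 0.0529. Without pregnant replicate 2, where Rfc4 was highest, its difference was 0.51 with an adjusted p of 0.052. Rfc5 differed by 0.33 (limma adjusted p = 0.116).

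Rfc2, another subunit of the same loader, is given because it lay lowest of the 37, a choice made after the values were seen. It was at 6.44, 6.20, 5.94 and 6.19 in the pregnant group, against 6.06, 6.22, 6.13 and 6.05 in the pseudopregnant group. The groups overlapped fully, with both the highest and the lowest value on pregnant arrays, and the difference of 0.08 ± 0.096 (SE) had a limma adjusted p of 0.635. Without pregnant replicate 1, the highest array, it was -0.0030.

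Of the genes that act on single strands and on the finished lagging strand, Rpa2, a subunit of the protein that coats single-stranded DNA, Lig1, the ligase that seals the fragments, and Fen1, the flap endonuclease, all had differences of 0.22 to 0.25. None passed the threshold in limma, and 2 of the 3 had an unadjusted p under 0.05. Fen1 was at 5.86, 5.88, 5.78 and 5.95 in the pregnant group, against 5.75, 5.65, 5.67 and 5.52 in the pseudopregnant group. The groups did not overlap but nearly touched, and the difference of 0.22 ± 0.063 (SE) had a limma adjusted p of 0.0851.

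The nucleotide supply genes held the member with the largest difference. None of the 5 passed the threshold in limma, and all 5 had an unadjusted p under 0.05. Rrm2, the inducible subunit of ribonucleotide reductase, which makes deoxynucleotides out of ribonucleotides, was at 7.29, 8.64, 7.23 and 7.19 in the pregnant group, against 6.64, 6.75, 6.74 and 6.49 in the pseudopregnant group. The groups did not overlap, and pregnant replicate 2 was far above the other pregnant arrays. The means were 7.59 ± 0.70 in the pregnant and 6.65 ± 0.12 in the pseudopregnant group (SD, n = 4 each), a difference of 0.93 ± 0.28 (SE) or 1.91-fold with a limma adjusted p of 0.0943. Without pregnant replicate 2 the difference was 0.58 and the adjusted p 0.016, so Rrm2 was then past the threshold with a smaller difference.

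The other reductase subunit gene, Rrm1, differed by 0.44 with no overlap (limma adjusted p = 0.0616). Thymidylate synthase (Tyms), which makes the thymine nucleotide, and thymidine kinase (Tk1), which salvages thymidine, differed by 0.33 and 0.32 with limma adjusted p-values of 0.162 and 0.174. A second, dimmer Tk1 probe set differed by 0.38 (limma adjusted p = 0.0504). Dut, the enzyme that removes dUTP, was at 7.10, 7.07, 6.76 and 7.07 in the pregnant group, against 6.70, 6.91, 6.78 and 6.73 in the pseudopregnant group. Pregnant replicate 3 lay within the pseudopregnant values and the other pregnant arrays above them, and the difference of 0.22 ± 0.083 (SE) had a limma adjusted p of 0.148.

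Of the 4 chromatin and methylation genes, 1 rose and all 4 had an unadjusted p under 0.05. Chaf1b, a subunit of the chromatin assembly factor that places histones on newly copied DNA, was at 7.083, 7.004, 6.541 and 7.002 in the pregnant group, against 6.345, 6.434, 6.286 and 6.122 in the pseudopregnant group. The groups did not overlap, and pregnant replicate 3 stood nearer to the pseudopregnant arrays than to its own group. The means were 6.91 ± 0.25 in the pregnant and 6.30 ± 0.13 in the pseudopregnant group (SD, n = 4 each). Chaf1b rose by 0.61 ± 0.12 (SE) or 1.53-fold (limma adjusted p = 0.0371), the largest rise of the 6. Chaf1a, the large subunit of the same factor, differed by 0.33 (limma adjusted p = 0.122). Uhrf1, which guides the maintenance methyltransferase to half-methylated DNA, differed by 0.41 (0.208), and the methyltransferase gene Dnmt1 by 0.27 (0.0693).

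**Figure D2:**
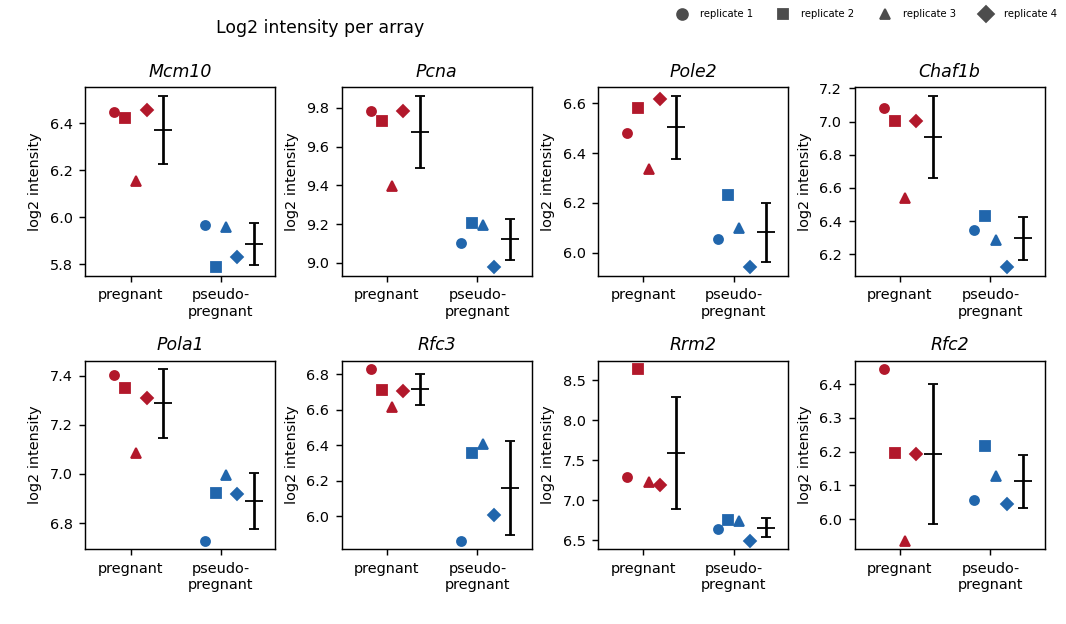
Log2 intensity on each array for the 6 genes that rose, for Rrm2 and for Rfc2 (y axes differ), with symbols for replicate numbers and the mean ± SD of 4 arrays beside the points. Pregnant replicate 3, a triangle, is the lowest pregnant array in all panels except that of Rrm2, where replicate 4 is lowest and replicate 2 lies at 8.64.

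The promoters of the 6 genes that rose are shown because E2F sites and CCAAT boxes are motifs often described in promoters of replication genes. Each line gives 150 bases before and 30 bases after the annotated start, in the direction of transcription, taken from RefSeq on GRCm38.p6. Capitals mark matches, on either strand, to an E2F form or to CCAAT.
Mcm10: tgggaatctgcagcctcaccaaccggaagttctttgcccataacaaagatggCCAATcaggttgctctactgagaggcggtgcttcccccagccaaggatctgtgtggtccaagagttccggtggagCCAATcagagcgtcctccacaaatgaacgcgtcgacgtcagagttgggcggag
Pcna: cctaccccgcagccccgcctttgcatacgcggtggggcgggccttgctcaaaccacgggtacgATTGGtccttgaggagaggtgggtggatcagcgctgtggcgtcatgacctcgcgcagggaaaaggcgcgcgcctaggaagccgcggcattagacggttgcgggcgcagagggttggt
Pole2: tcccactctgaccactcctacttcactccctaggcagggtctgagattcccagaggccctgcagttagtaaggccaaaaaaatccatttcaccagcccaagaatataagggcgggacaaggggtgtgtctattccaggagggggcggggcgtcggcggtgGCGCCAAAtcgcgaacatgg
Chaf1b: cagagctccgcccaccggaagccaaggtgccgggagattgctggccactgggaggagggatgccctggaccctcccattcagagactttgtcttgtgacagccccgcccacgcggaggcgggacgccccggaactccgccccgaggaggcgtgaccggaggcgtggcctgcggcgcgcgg
Pola1: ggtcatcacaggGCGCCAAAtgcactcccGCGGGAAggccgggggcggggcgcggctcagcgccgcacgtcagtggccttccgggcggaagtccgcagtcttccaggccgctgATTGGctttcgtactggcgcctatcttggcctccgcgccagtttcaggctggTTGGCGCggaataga
Rfc3: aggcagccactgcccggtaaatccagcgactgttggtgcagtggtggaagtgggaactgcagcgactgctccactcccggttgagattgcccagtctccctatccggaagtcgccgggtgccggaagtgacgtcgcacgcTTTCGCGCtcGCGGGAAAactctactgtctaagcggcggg
The positions are chr2:5012762-5012941 (minus strand) for Mcm10, chr2:132253151-132253330 (minus) for Pcna, chr12:69228161-69228340 (minus) for Pole2, chr16:93883751-93883930 (plus) for Chaf1b, chrX:93632126-93632305 (minus) for Pola1 and chr5:151651179-151651358 (minus) for Rfc3. Pole2, Pola1 and Rfc3 carried 1, 1 and 2 matches to an 8-letter E2F form, and Mcm10, Pcna and Pola1 carried 2, 1 and 1 CCAAT matches. The window of Chaf1b held none of these letters.

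Letters were counted in the longer RefSeq windows of 250 bases before to 50 after the start, which were at hand for 33 of the 39 genes and for 27025 genes in all. The E2F forms searched were TTTCCCGC, TTTCGCGC, TTTGCCGC and TTTGGCGC on both strands. They occurred in 15 of the 33 genes (45.5%), among them Mcm5, Mcm6 and Cdc6, against 2.61% of all genes. The same forms without their first T, which include the longer ones, occurred in 23 of the 33 (69.7%), against 10.9% of all genes. Chaf1b was among these 23, with TTCCCGC on the opposite strand starting at bases -227 and 27 from the start. The second of these matches runs past the end of the printed window. CCAAT on either strand was found in 20 (60.6%), against 41.1% of all genes. TTTGAA, a motif known from promoters of mitosis genes, was found in 5 (15.2%), against 20.2% of all genes. Of 23 mitosis genes with a window, 1 held an 8-letter E2F form (4.35%), 4 a shorter form (17.4%) and 17 TTTGAA (73.9%). CCAAT was found in 18 of them (78.3%), a larger share than in the 33 genes. These matches describe the letters in the windows and are not binding sites measured here.

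The genes moved together from array to array as well as between the groups. After subtraction of the group means, the 666 pairs of the 37 genes had a median Pearson r of 0.66 over the 8 arrays, with a range of -0.32 to 0.99, and 97.3% of the pairs were above 0. The median r of the same genes with all tested probe sets was 0.043. All arrays share the normalization, and the 8 values hold only 4 arrays of each group, so r is a description. Pcna and Cdc45 had the highest median r with the other members (0.82 each), and Rrm2 and Rfc4 the lowest (0.31 each).

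Within their groups, pregnant replicate 3 and pseudopregnant replicate 4 were most often the low arrays. Pregnant replicate 3 was the lowest pregnant array in 35 of the 37 genes (94.6%), against 26.4% of all tested probe sets. Pseudopregnant replicate 4 was the lowest of its group in 24 of the 37 (64.9%), against 25.5% of all tested probe sets. The mean of the 37 genes was 7.26, 7.28, 6.91 and 7.18 on pregnant arrays 1 to 4, against 6.79, 6.87, 6.85 and 6.66 on the pseudopregnant arrays. The means did not overlap, but that of pregnant replicate 3 was only slightly above the highest pseudopregnant mean. The highest value of all 8 arrays was on pregnant replicate 1 for 17 of the genes (45.9%) and on pregnant replicate 2 for 14 (37.8%), against 9.04% and 19.2% of all tested probe sets.

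**Figure D3:**
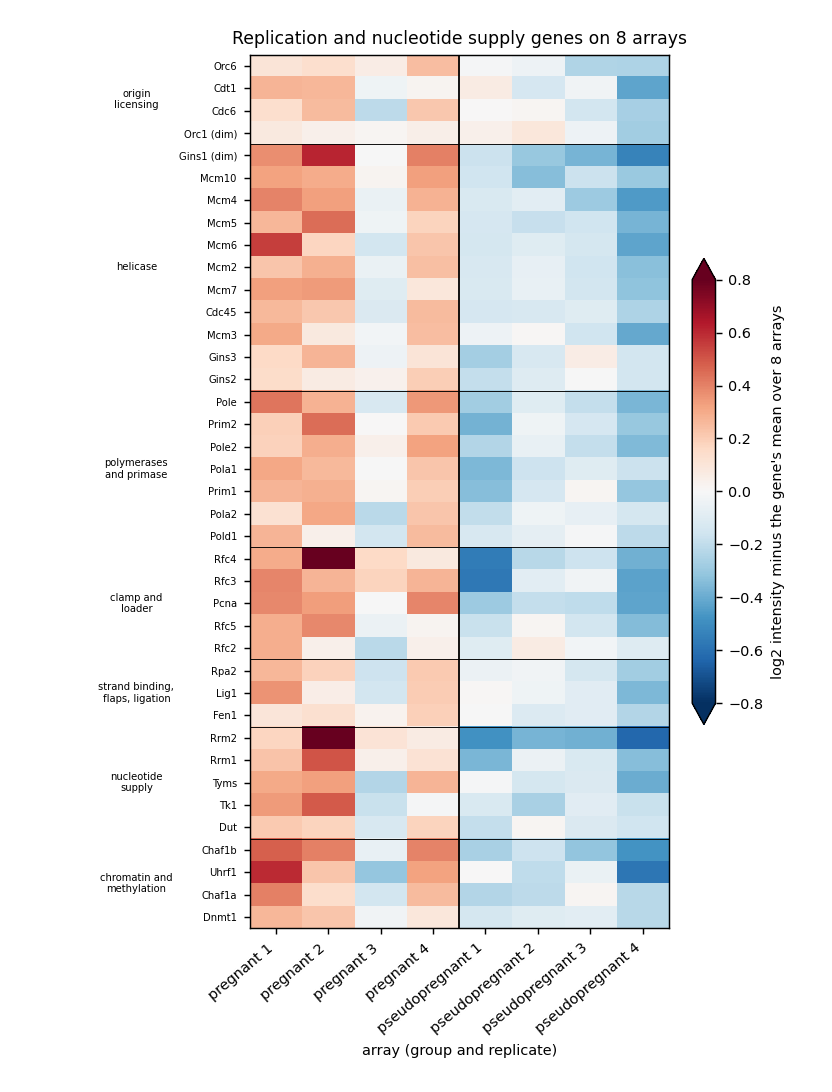
Log2 intensity of each of the 39 genes minus its mean over 8 arrays (colour, red above and blue below the mean), by array (columns) and by role (blocks of lines). The pregnant columns 1, 2 and 4 are red in nearly all genes, pregnant replicate 3 is pale, and pseudopregnant replicate 4 is the bluest, and the 2 genes marked dim were not tested.

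Lists of further genes of the same processes were set beside these. Of 39 tested further replication genes, 5 rose (12.8%), 19 had an unadjusted limma p under 0.05 (48.7%) and 36 lay above 0 (92.3%). Their median was 0.22. Of all tested probe sets, 1.41% rose, 14.3% were higher at that unadjusted p and 50.6% lay above 0. The 5 were Tipin and Topbp1 of the replication checkpoint, Wdhd1, which links polymerase alpha to the helicase, Pole4, a small subunit of polymerase epsilon, and Mcm8, an MCM relative that acts in DNA repair. Tipin was at 5.93, 5.74, 5.65 and 5.71 in the pregnant group, against 5.15, 5.27, 5.19 and 5.21 in the pseudopregnant group. The groups stood well apart. On pseudopregnant replicates 1, 3 and 4, however, Tipin lay below the 40th percentile of its own array (5.28 to 5.32), and on replicate 2 just above it (5.24). The filter was thus passed mainly through the pregnant arrays, and the size of the rise is not exact. It was 0.55 ± 0.066 (SE, limma adjusted p = 0.0120), and 0.56 without pregnant replicate 2 (0.016). The other 4 rose by 0.28 to 0.53 with limma adjusted p-values of 0.0255 to 0.0382. Tipin alone kept its call without pregnant replicate 1, 2 or 4 and without pseudopregnant replicate 1, 2 or 3, where the count of this list was 1, while the count was 9 without pregnant replicate 3 and 2 without pseudopregnant replicate 4. Gmnn and Dscc1 were too dim to test.

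Of 32 tested genes of nucleotide synthesis outside the 39, 26 lay above 0 (81.25%, against 50.6% of all tested probe sets), with a median of 0.15. At an unadjusted p under 0.05 in limma, 17 were higher (53.1%, against 14.3%). At the threshold, 3 genes rose (9.38%, against 1.41%). They were Shmt2, which feeds one-carbon units into purine and thymidylate synthesis (0.36, limma adjusted p = 0.0348), Gmps, which makes GMP (0.28, 0.0390), and Dctd, the dCMP deaminase (0.28, 0.0414). Umps, which makes UMP, had 0.36 with a limma adjusted p of 0.0546. Without pregnant replicate 3 the count of this list was 2 (Dctd and Shmt2). Without pseudopregnant replicate 2 it was 1, and that gene was Umps, which is not among the 3. Without any other array the count was 0, and limma then had 12 to 15 of the genes at an unadjusted p under 0.05. Gmps thus kept its call in none of the fits with 1 array left out.

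Genes of mitosis act later in the cell cycle. All 23 tested mitosis genes lay above 0, where 50.6% of all tested probe sets did, with a median of 0.32. None passed the threshold in limma, and 5 had an unadjusted p under 0.05 (21.7%, against 14.3% of all tested probe sets). The groups did not overlap in 2 (8.70%), close to the 9.23% of all tested probe sets. Their mean was 6.81, 7.60, 6.87 and 6.76 on pregnant arrays 1 to 4, against 6.56, 6.79, 6.87 and 6.59 on the pseudopregnant arrays. Pregnant replicate 2 was far above all other arrays, and the other 3 pregnant means lay within the pseudopregnant range. The difference of the means was 0.30 with all arrays and 0.10 without pregnant replicate 2, whereas the same means for the 37 replication and nucleotide genes gave 0.37 and 0.33. The difference between the 2 lists was not tested. Mki67, the common marker of cycling cells, was at 8.34, 8.96, 8.22 and 8.18 in the pregnant group, against 8.13, 8.27, 8.23 and 7.96 in the pseudopregnant group, with a difference of 0.28 (limma adjusted p = 0.311).

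Of the 11 E2F and retinoblastoma family genes, 5 had an unadjusted limma p under 0.05 upward, and the median was 0.13. That is 45.5% of them, against 14.3% of all tested probe sets. At the threshold, 1 gene rose (9.09%, against 1.41%). It was E2f8, an E2F that represses transcription in cycling cells, at 6.896, 7.668, 6.648 and 7.003 in the pregnant group, against 6.169, 6.167, 6.262 and 6.090 in the pseudopregnant group. The groups did not overlap and pregnant replicate 2 was the highest array. The rise was 0.88 ± 0.18 (SE, limma adjusted p = 0.0405), and without pregnant replicate 2 it was 0.68 (0.016).

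**Figure D4:**
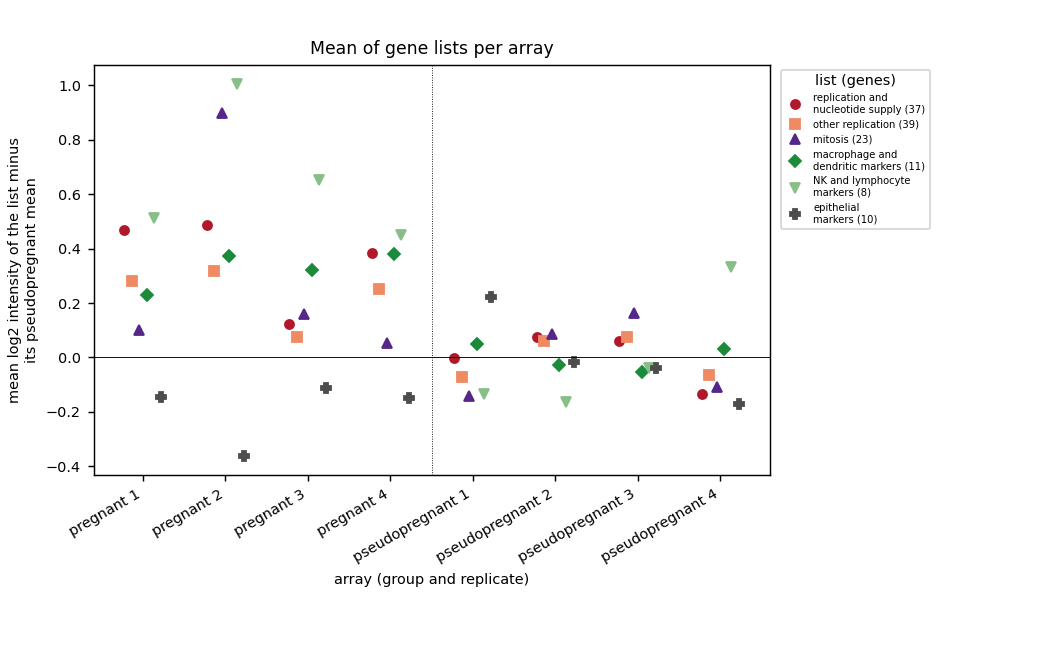
Mean log2 intensity of 6 gene lists on each array, relative to the list's pseudopregnant mean (y axis), by array (x axis, pregnant left of the dotted line). On pregnant replicates 1 to 4 the replication and nucleotide genes lie at 0.47, 0.49, 0.12 and 0.38 and the mitosis genes at 0.10, 0.90, 0.16 and 0.05.

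Markers of other cells were read beside these genes. Of 11 tested macrophage and dendritic cell markers 7 rose (Adgre1, C1qb, C1qc, Cd68, Itgam, Itgax and Mrc1), where 1.41% of all tested probe sets did, with array means of 6.88 to 7.03 in the pregnant group against 6.60 to 6.70 in the pseudopregnant group. With 1 array left out the count was 1 to 4, and it was 4 without pregnant replicate 2. It was 1 without the filter on dim probe sets and 2 with the block of likely array controls kept in. In those fits limma had 8 of 12 and 8 of 11 markers higher at an unadjusted p under 0.05. Of the 11 markers, 10 lay above 0. Csf1r, C1qa and Fcgr1, which did not pass, differed by 0.20, 0.085 and 0.11, and Cd14 lay below 0, at -0.27. Of 8 tested NK cell and lymphocyte markers 4 rose (Gzmb, Il2rb, Ncr1 and Prf1), where 1.41% of all tested probe sets did. The 8 had array means of 5.98 to 6.54 in the pregnant group against 5.37 to 5.87 in the pseudopregnant group. Cd79a and Ms4a1 of B cells were too dim to test. The count of 4 became 2 without pregnant replicate 1 or 2, 1 without pregnant replicate 3 and 5 without pseudopregnant replicate 4. It was 0 without pregnant replicate 4 or pseudopregnant replicate 1, 2 or 3, where limma had 5 or 6 of the markers at an unadjusted p under 0.05. The count was also 0 without the filter on dim probe sets and 0 with the control block kept in. There limma had 7 of 11 and 6 of 8 markers higher at that unadjusted p. Of the 8 markers, 7 lay above 0. Cd3g and Cd3e, of T cells, differed by 0.042 and -0.15, and Klrd1 and Gzma by 0.90 and 0.43, none of which passed. Of the 10 epithelial markers 2 lay above 0, none passed the threshold in limma and 3 had an unadjusted p under 0.05 downward, with array means of 7.33 to 7.58 in the pregnant group against 7.52 to 7.91 in the pseudopregnant group. All 10 endothelial markers lay below 0 and all 10 stromal markers above 0, and none passed the threshold in limma, with 5 downward and 2 upward at an unadjusted p under 0.05. Of 10 smooth muscle markers 5 lay above 0 and none passed in limma, with 3 downward at an unadjusted p under 0.05. Beside these lists, 50.6% of all 17491 tested probe sets lay above 0. At an unadjusted limma p under 0.05, 14.3% of all tested probe sets were higher, and 1650 of the 17491 were lower. The share of stromal markers higher at that p, 20%, was near the 14.3%. The part of these cells in the differences of the replication genes was not tested. Of 10 blastocyst markers, 7, among them Pou5f1, Nanog and Cdx2, were too dim to test, at 3.74 to 4.92 on the pregnant and 3.59 to 5.13 on the pseudopregnant arrays, below the 40th percentile everywhere. Of the 3 tested, Eomes, Krt8 and Dppa5a, none passed in limma, and Eomes, which NK cells also express, had 0.72 (limma adjusted p = 0.0569). Eomes lay below the 40th percentile on every pseudopregnant array and above it on every pregnant array. It was thus tested only through the pregnant group, and the size of its difference is not exact. The same held for the NK cell marker Klrd1. Ncr1, which rose, lay below the percentile on pseudopregnant replicates 1 and 2, at 5.05 and 5.07 against 5.32 and 5.24. On pseudopregnant replicate 3 it lay just above. Gzma lay below it on pregnant replicate 4 and on pseudopregnant replicates 1, 2 and 3. Both markers passed the filter mainly through pregnant arrays, and the sizes of their differences are not exact. The uterine markers Pgr, Esr1, Hoxa10, Hoxa11, Hoxd10, Wnt7a, Foxa2 and Emx2 were all measured above the filter, and none of the 8 passed the threshold in limma or had an unadjusted p under 0.05.

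Over all probe sets, the arrays had like distributions, with median intensities between 55.2 and 56.3 and a highest value of 8113. On the first principal component, with 46.1% of the variance, pregnant replicate 2 stood at 26.7, where the other pregnant arrays lay between 4.90 and 6.63. Pseudopregnant replicate 1 stood at -20.3, where its group lay between -9.32 and -6.76. The mean of the 37 genes differed by 0.37 with all arrays, by 0.33 without pregnant replicate 2 and by 0.32 without both of these arrays.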

How the data were processed

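Total RNA of 8 uterus samples was hybridised as biotin-labelled samples, 1 array each, per the labels, which call the samples biological replicates and give no collection or hybridisation batch. The authors deposited linear intensities per probe set and used RMA, per the submitters' processing notes. RMA usually corrects the background, makes the arrays' distributions alike and summarises each probe set. Neither its version nor the array's genome build is named in the sources. RMA compresses changes of dim genes. Here log2 was taken. Of 35556 probe sets, a block of 6617 with identifiers below the first one with a gene was left out as array controls, an inference. Of the other 28939, 21789 had 1 gene symbol in the platform's gene table, which can be old, 1621 had several and 5529 had none listed. Only those with 1 symbol were named. All 39 gene numbers matched RefSeq on GRCm38.p6. A probe set was tested where it lay above the 40th percentile of its own array on at least 4 of 8 arrays, which left 17491. A gene was represented by its probe set with the highest mean over 8 arrays, and intensities of different probe sets were not set against each other.

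The test was limma 3.58.1 (lmFit, eBayes, in R 4.3.3) with a group term only, two-sided, with Benjamini-Hochberg adjustment over all tested probe sets. The code was checked on simulated data. Tables and figures were made with pandas 2.3.3 and matplotlib 3.10.9 in Python 3.11.15. Array counts limit the precision. The members and lists were chosen with earlier results of these data known, so no list was tested as a set. Values on all arrays were given for the 12 genes with the smallest p, for the gene with the smallest difference in each role without one of these, and for Rrm2, 1 of the genes with an outlying array, all of which are named. In the lists of further replication and nucleotide genes, those past the threshold were named, or failing that those with the smallest p, and of the mitosis and E2F lists Mki67 and E2f8. Rfc2, Gins1 and Orc1 were added as the lowest and the untested members. The macrophage, dendritic, NK cell and lymphocyte markers and Eomes were named after their values were seen. Promoter letters were searched in RefSeq windows. Alternatives changed the filter, the normalization, an offset of 16 before log2, array weights, the variance prior, the probe set per gene, a replicate block and each array left out.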

Additional observations from a re-analysis of the deposited data

Results flagged for a closer look

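Of 78 sets of 4 array values examined (39 genes in 2 groups), 9 held a sample far from the other 3 of its group by Dixon's criterion, where chance gives about 1 in 20 sets. Of the 9, 6 were low values on pregnant replicate 3: Mcm10 at 6.15 (others 6.42 to 6.46), Cdc45 at 6.27 (others 6.60 to 6.64), Pcna at 9.40 (others 9.73 to 9.78), Tyms at 7.59 (others 8.09 to 8.15), Dut at 6.76 (others 7.07 to 7.10) and Chaf1b at 6.54 (others 7.002 to 7.083). Rrm2 was high on pregnant replicate 2, at 8.64 (others 7.19 to 7.29). In the pseudopregnant group, Mcm6 was low on replicate 4, at 7.29 (others 7.57 to 7.62), and Chaf1a was high on replicate 3, at 6.37 (others 6.12 to 6.14). The 6 genes low on the same array share that array, so these values are not independent of one another.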

How the results depend on the processing

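The median difference of the 37 genes kept its sign and moved by less than the spread between arrays under every alternative run (0.30 to 0.35, and 0.28 to 0.43 with 1 array left out). The count of genes past the threshold was 6, and it was 0 without the filter on dim probe sets (33 of 39 at an unadjusted p under 0.05 in limma), 14 with a trended and robust variance prior, 1 with the replicate block, and 0 to 11 with 1 array left out. After the data were seen, 2 alternatives were added: without both arrays that stand apart the count was 1, and with the array control block kept in it was 0 (30 at an unadjusted p under 0.05). The cause of these changes was not tested. For the further replication genes the count of 5 was 1 without the filter, 3 with the stricter filter, 1 with the replicate block, 1 to 9 with 1 array left out, 1 without both arrays and 1 with the control block. For the further nucleotide genes the count of 3 was 0, 5 and 6 without the filter, with the stricter filter and with the other variance prior, 0 to 2 with 1 array left out, and 0 without both arrays and with the control block. Over all probe sets the count of 319 was 54 without the filter, 710 with the other variance prior, 174 with the replicate block, 40 to 235 with 1 array left out, 48 without both arrays and 70 with the control block. A repeated quantile normalization gave 216 higher and 104 lower calls, against 247 and 72. With the replicate block, 3 of the 7 macrophage and dendritic markers and 1 of the 4 NK and lymphocyte markers kept their calls. Rfc2 changed sign without pregnant replicate 1, with a range of -0.0030 to 0.17 over the arrays left out. For arrays with equal replicate numbers, the correlations of their deviations were 0.24, 0.016, -0.10 and 0.044, and 3 of 8 arrays correlated best with their own number. These values show no clear pairing of the samples by number but cannot settle whether they were paired. Over genes and alternatives, 609 values kept their side of the threshold, 23 passed it newly, 64 lost it and 1 changed sign.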
